A study of Mus musculus with 6 samples.

Results

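The genes described here encode the enzymes and metal-binding proteins with which cells use glutathione and thioredoxin to remove peroxides, superoxide and reactive chemicals. They were taken from the deposited gene table by symbol: the glutathione S-transferases (Gst and Mgst families), the glutathione peroxidases (Gpx), the peroxiredoxins (Prdx), the thioredoxins and thioredoxin reductases (Txn, Txnrd), and Nqo1, Hmox1, Gclc, Gclm, Gsr, Osgin1, Srxn1, Sod1, Sod3, Cat, Mt1 and Mt2. The rule reads only symbols, although the set was proposed with earlier results of these data known, and it gave 54 of the 14228 genes in the table. Sod2 was also on the list of symbols and is not analysed here. Glutathione is a small thiol that the transferases couple to reactive molecules and the glutathione peroxidases spend on peroxides, while peroxiredoxins are recharged by thioredoxin. NRF2 (gene Nfe2l2) is a transcription factor that KEAP1 holds at a low level until oxidants or electrophiles release it. It then binds antioxidant response elements beside many of these genes with small MAF partners.

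RNA was measured in 6 libraries of sorted mouse stomach cells, 3 labelled cancer-associated fibroblasts (CAF) and 3 labelled normal fibroblasts. All mice, controls included, were triple-transgenic iLgr5;GLI2A animals of 8 weeks, a model in which an active GLI2 can be switched on in Lgr5-expressing cells. The CAF mice were gavaged with tamoxifen in corn oil on 5 days and then ate doxycycline chow for 3 weeks, with doxycycline also in sweetened water on the first 3 days, whereas the control mice had corn oil and neither drug. Drug and cancer therefore cannot be told apart in any comparison below. Live cells were sorted as podoplanin-positive and negative for CD31, CD45 and EpCAM, and MARS-seq, which counts transcripts at their 3′ ends, was applied to their RNA. CAF libraries 1, 2 and 3 held cells of 1, 2 and 2 mice, and normal libraries 1, 2 and 3 held cells of 1, 1 and 2 mice. The comparison asked how RNA levels in stomach fibroblasts differed between mice with induced cancer and control mice.

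The libraries were unequal in depth and in cell make-up. Totals ran from 644522 to 6422568 counts among CAF libraries, the first being the shallowest, and from 768420 to 3259644 among normal libraries. Levels are given in CPM, which are read counts relative to a library size multiplied by a scaling factor for each library (TMM). The libraries therefore do not share a CPM total. Summed over all genes, CPM ran from 868477 in CAF library 3 to 1330097 in normal library 1. All 16 genes of the fibroblast marker list were present. They summed to 13526, 32759 and 38300 CPM in CAF libraries 1 to 3, against 6768, 11666 and 19423 CPM for the normal libraries in the same order. Genes of gastric gland cells (pit and neck, chief, parietal and enteroendocrine, 28 listed of 32) took 0.585%, 0.881% and 0.652% of the counts in the CAF libraries, as against 18.0%, 14.2% and 4.07% in the normal ones. None of those 28 genes was at 0 in every CAF library. Normal library 3 thus stood apart from normal libraries 1 and 2, with less gland RNA and more fibroblast RNA, but its pit and neck genes still took 2.83% of its counts. The part of gland RNA in the results below was not tested. In bulk samples such as these, fewer cells of a type and less RNA per cell cannot be told apart.

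Of the 54 genes, 48 passed the filter on low counts and were tested, and 2 differed between the groups, Mgst3 and Osgin1, both lower in CAF (edgeR's quasi-likelihood test, Benjamini-Hochberg adjusted p under 0.05 over all 10148 genes tested). Over all genes tested 1.10% passed in either direction, 0.897% higher and 0.207% lower in CAF. The median log2 fold change of the 48 was -0.33, against 0.06 over all genes tested, and 32 of the 48 lay below 0, where 46.1% of all tested genes did. The 3 CAF and 3 normal values did not overlap for 17 of the 48, of which 3 (Gstt2, Sod3 and Hmox1) were higher and 14 lower in CAF. The same held for 19.9% of all tested genes, 10.6% in the higher direction and 9.35% in the lower. At an unadjusted p under 0.05 there were 3 members higher and 14 lower, beside 15.3% of all tested genes (7.37% higher and 7.97% lower). DESeq2 called 8 members, all lower (Gsta1, Gstk1, Gstm3, Gsto1, Mgst2, Mgst3, Nqo1 and Osgin1). Of the 12835 genes to which it gave an adjusted p it called 7.28%, 3.12% higher and 4.17% lower. The authors' deposited table gave an adjusted p under 0.05 to 6 members, all lower (Gsta1, Gsto1, Mgst2, Mgst3, Nqo1 and Osgin1), and to 6.37% of all genes, 3.61% in the lower direction. The 6 members below the filter were Gstm3, Gstm6, Gsto2, Gstp2, Gstp3 and the pseudogene Gpx2-ps1.

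**Figure D1:**
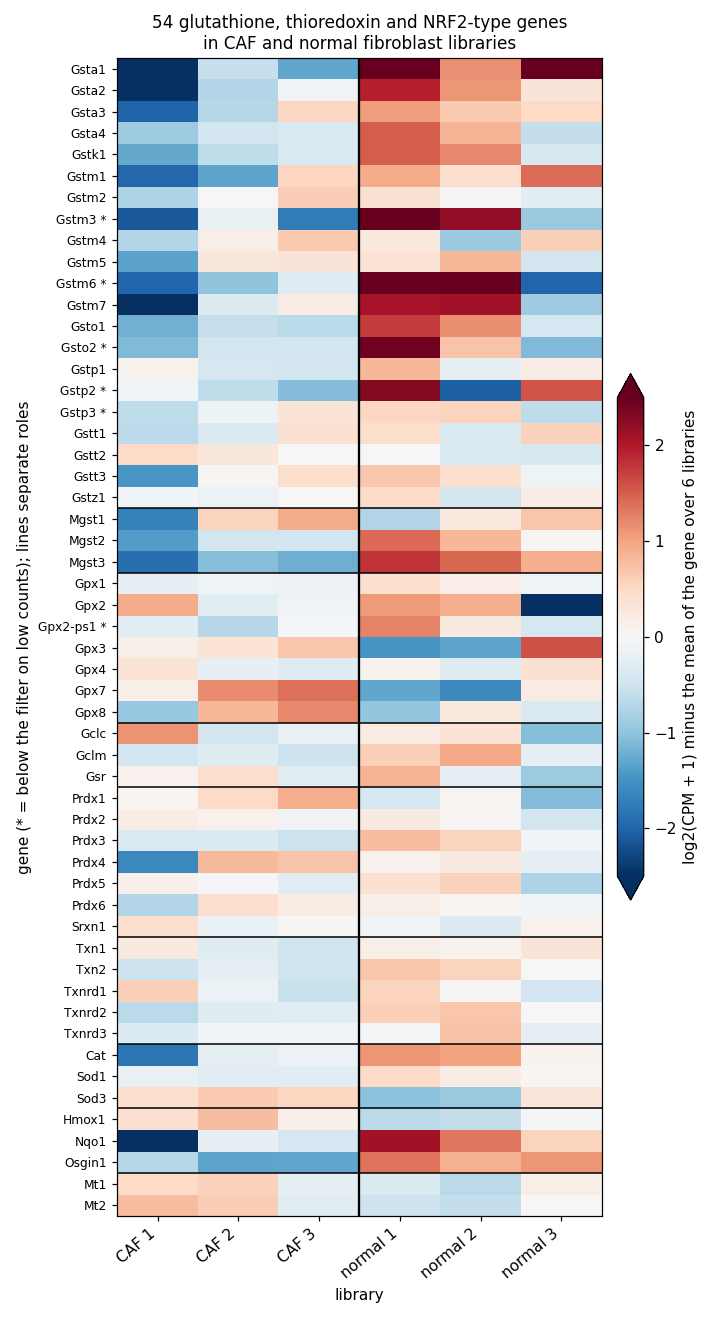
Level of all 54 genes in the 6 libraries, as log2(CPM + 1) minus the mean of each gene over the libraries, with genes ordered by role (rows) and libraries in columns. Cytosolic transferases are mostly highest in normal libraries 1 and 2, and Gpx3 is highest in normal library 3, where it reached 6172 CPM.

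Mgst3, a membrane-bound transferase with peroxidase activity, lies on chromosome 1 from 167371966 to 167393841 on the minus strand (mm10). Its level was 17.6, 31.6 and 28.4 CPM in CAF libraries 1 to 3, against 239, 184 and 128 CPM in normal libraries 1 to 3. Every normal library, library 3 included, stood far above every CAF library. The means were 25.9 ± 7.36 CPM in CAF against 183 ± 55.6 CPM in normal fibroblasts (SD, n = 3 in each group). This was a 6.93-fold lower level in CAF, a log2 fold change of -2.79 ± 0.38 (SE) with an edgeR adjusted p of 0.025. Against normal library 3 alone the log2 fold change was -2.20. The call was lost when any library other than normal library 3 was left out: the edgeR adjusted p was 0.0636, 0.121 and 0.105 without CAF library 1, 2 and 3, and 0.155 and 0.0995 without normal library 1 and 2. It was 0.0066 without normal library 3.

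Osgin1, a gene known to be induced through NRF2 whose product restrains cell growth, lies on chromosome 8 from 119434124 to 119446256 on the plus strand. It was at 10.2, 6.35 and 6.49 CPM in the CAF libraries, against 46.1, 32.9 and 38.8 CPM in the normal libraries. The normal libraries were close to each other here, and all lay above every CAF library. The means were 7.69 ± 2.21 CPM and 39.3 ± 6.604 CPM (SD, n = 3 in each group). Osgin1 was 5.41-fold lower in CAF, a log2 fold change of -2.44 ± 0.39 (SE; edgeR adjusted p = 0.039), and -2.35 against normal library 3 alone. With CAF library 1, 2 or 3 left out the edgeR adjusted p was 0.0572, 0.218 and 0.158, and with normal library 1 or 2 left out it was 0.209 and 0.125. It was 0.0136 without normal library 3. With the mouse number per library as covariate the log2 fold changes were -2.75 for Mgst3 and -2.32 for Osgin1, each with an edgeR adjusted p of 0.0646, and 81 genes in all were called there.

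The bases just upstream of the annotated starts of the genes that differed are shown because NRF2 acts at elements in such regions. They are RefSeq windows of GRCm38.p6, read 5′ to 3′ on the strand of the gene: 250 bases at chr1:167393842-167394091 (minus strand) for Mgst3, and 221 bases at chr8:119436897-119437117 (plus strand) for Osgin1, the latter lying inside the longest annotated form of the gene and cut short of 29 bases that GENCODE counts as exon.
Mgst3: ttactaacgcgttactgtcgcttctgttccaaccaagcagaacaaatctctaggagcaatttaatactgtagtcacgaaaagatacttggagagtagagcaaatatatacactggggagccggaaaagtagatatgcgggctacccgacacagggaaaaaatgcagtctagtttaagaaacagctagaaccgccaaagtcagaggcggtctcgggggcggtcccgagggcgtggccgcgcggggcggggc
Osgin1: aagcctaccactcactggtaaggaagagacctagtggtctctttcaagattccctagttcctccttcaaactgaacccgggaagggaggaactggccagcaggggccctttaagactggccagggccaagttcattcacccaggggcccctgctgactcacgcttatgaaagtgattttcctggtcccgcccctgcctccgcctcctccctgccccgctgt
Neither window holds the core letters TGACNNNGC of the antioxidant response element on either strand, which says only that these letters are not there. Across RefSeq genes, 11.5% of 27025 had that core in the 250 bases before a start.

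**Figure D2:**
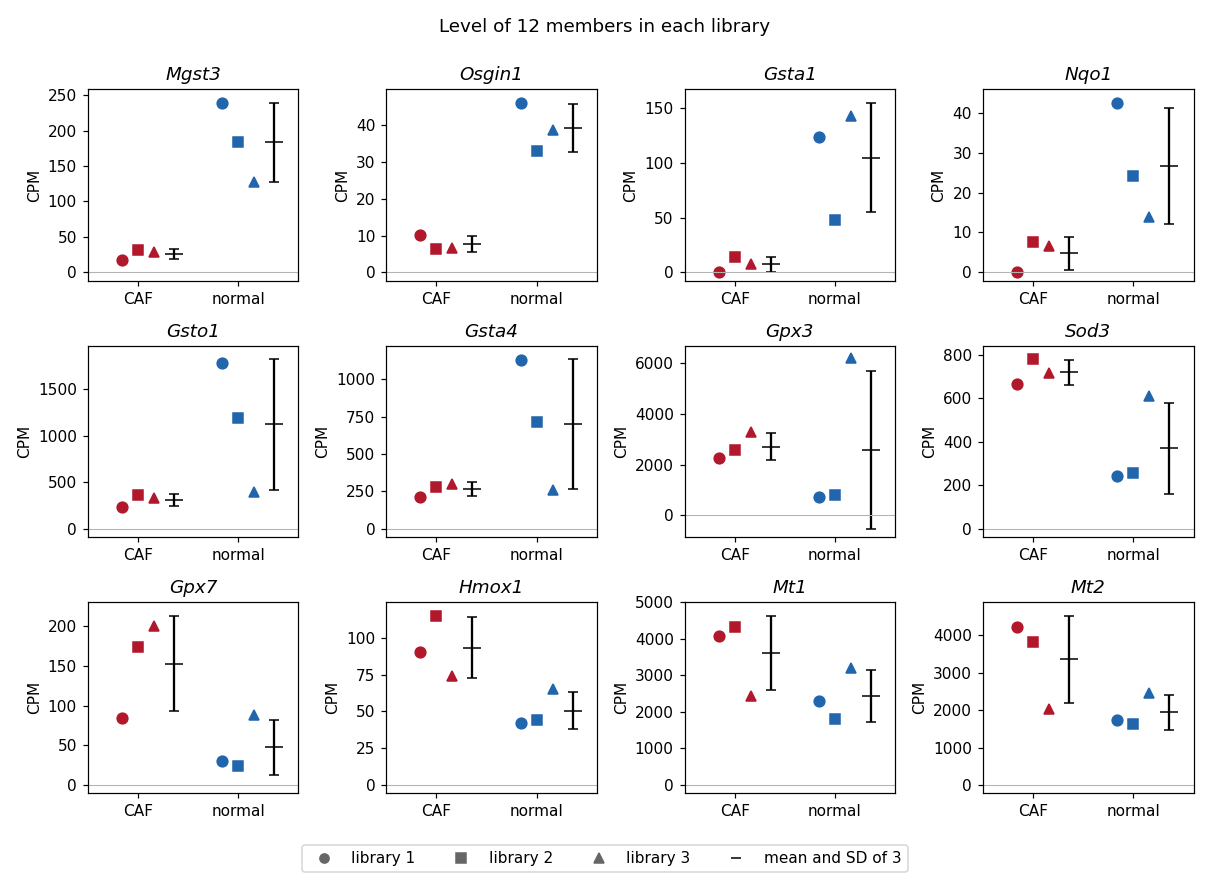
CPM of 12 genes in each library (points, with the shape giving the library number) and the mean and SD of the 3 libraries of each group (bars). Mgst3, Osgin1, Gsta1, Nqo1 and Gsto1 (lower in CAF) and Sod3 and Hmox1 (higher in CAF) separate all CAF from all normal libraries. Gsto1, Gsta4, Gpx3, Sod3 and Gpx7 in normal library 3 lie away from normal libraries 1 and 2. The SD bar of Gpx3 in normal fibroblasts runs below 0 because the SD exceeds the mean.

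Among the cytosolic glutathione S-transferases, which couple glutathione to reactive compounds, none of the 16 tested of 21 listed passed the threshold by edgeR, and 5 were lower at an unadjusted p under 0.05. Their median log2 fold change was -0.86, and 14 of 16 values were below 0. Against normal library 3 alone, 10 of the 16 were below 0 with a median of -0.26. Their summed level was 990.5, 1471 and 2251 CPM in the CAF libraries, against 5145, 3478 and 2903 CPM in the normal libraries. The groups did not overlap in that sum, and normal library 3 was the nearest to the CAF libraries.

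Gsta1, an alpha-class transferase that also reduces lipid peroxides, was at 0, 13.9 and 7.98 CPM in the CAF libraries, against 123.2, 48.1 and 143 CPM in the normal libraries. Normal library 3 was the highest, and no CAF library reached a normal one. The fitted difference was 12.2-fold lower in CAF (log2 fold change -3.61 ± 0.79, SE; edgeR adjusted p = 0.0749), and -3.97 on the log2 scale against normal library 3. Of the 50-base stretches in the last 300 bases of Gsta1, 82.1% also occur in Gsta2, Gm3776 or Gm10639, so reads of these genes may not be separable.

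Gsto1, an omega-class transferase that reduces oxidised thiols, was at 229.7, 358 and 332 CPM in the CAF libraries, against 1788, 1187 and 390.2 CPM in the normal libraries. Normal library 3 lay just above the CAF libraries and normal libraries 1 and 2 far above them. The log2 fold change was -1.87 ± 0.56 (SE; edgeR adjusted p = 0.153) and -0.28 against normal library 3. Gsto1 shares its locus with Cfap43 on the opposite strand, and whether strand was used in counting is not known. Gpx2 (Fntb), Gpx8 (Cdc20b), Gclm (Gm17494), Prdx2 (Junb, Rnaseh2a), Prdx5 (Trmt112), Sod1 (Scaf4) and Mt2 (Gm45774) also overlap an antisense gene, given in parentheses. Without normal library 3 the log2 fold change of Gsto1 was -2.34, with an edgeR adjusted p of 0.0113.

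Gsta4, which clears the lipid peroxidation product 4-hydroxynonenal, was at 212, 282 and 302 CPM in the CAF libraries, against 1127, 714 and 261 CPM in the normal libraries. Normal library 3 fell inside the range of the CAF libraries. The log2 fold change was -1.40 ± 0.53 (SE; edgeR adjusted p = 0.256) with all normal libraries and 0.08 against normal library 3, so its direction turned there. The mitochondrial and peroxisomal Gstk1 also had normal library 3 inside the CAF range, at 13.2, 21.0 and 25.2 CPM in CAF against 96.3, 77.3 and 25.01 CPM in normal fibroblasts (log2 fold change -1.71 ± 0.52, SE; edgeR adjusted p = 0.165). Its log2 fold change was -0.23 against normal library 3, so the direction of Gstk1 did not turn. Both passed without normal library 3, with edgeR adjusted p of 0.0188 for Gsta4 and 0.0158 for Gstk1.

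Gstm1, a mu-class transferase, was at 140.5, 222 and 802 CPM in the CAF libraries, against 1047, 751 and 1451 CPM in the normal libraries. CAF library 3 reached into the normal range, and normal library 3 was the highest of all (log2 fold change -1.48 ± 0.66, SE; edgeR adjusted p = 0.351). Gstp1, a pi-class transferase, was at 62.9, 43.8 and 42.9 CPM in CAF against 105, 50.7 and 67.5 CPM in normal fibroblasts, with overlapping groups. All 50-base stretches of its last 300 bases occur in Gstp2 as well. The theta-class Gstt1 was at 70.2, 86.0 and 143 CPM against 149, 84.9 and 165 CPM, again overlapping (edgeR adjusted p = 0.713).

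Gstt2, another theta-class enzyme, was the only cytosolic transferase whose CAF values all lay above the normal ones. It was at 58.5, 50.8 and 42.2 CPM in the CAF libraries, against 42.0, 31.7 and 31.3 CPM in the normal libraries, so the lowest CAF and highest normal library nearly touched. The difference was 1.42-fold (log2 fold change 0.51 ± 0.31, SE; edgeR adjusted p = 0.523). The 8 other tested cytosolic transferases had log2 fold changes from -2.22 (Gsta2) to 0.08 (Gstm4), with edgeR adjusted p from 0.225 to 0.999.

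Of the microsomal transferases, which sit in membranes, Mgst2 showed a pattern of the same direction as Mgst3. Mgst2, which can make leukotriene C4, was at 11.7, 23.2 and 23.1 CPM in the CAF libraries, against 87.7, 58.3 and 33.8 CPM in the normal libraries. There was no overlap, with normal library 3 nearest to CAF. Its log2 fold change was -1.59 ± 0.45 (SE; edgeR adjusted p = 0.135), -0.69 against normal library 3, and it passed without that library (edgeR adjusted p = 0.0306). Mgst1, an abundant protective enzyme of the endoplasmic reticulum, was at 67.3, 322 and 421 CPM in CAF against 132, 262 and 355 CPM in normal fibroblasts. Each group spanned several-fold and the groups overlapped (log2 fold change 0.12 ± 0.65, SE; edgeR adjusted p = 0.96). The count ratio of Mgst3 to Mgst1 was 0.261, 0.0983 and 0.0675 in CAF and 1.81, 0.700 and 0.359 in normal fibroblasts, without overlap.

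None of the 6 tested glutathione peroxidases passed by edgeR or DESeq2 (which gave Gpx3 no adjusted p), 1 (Gpx7) had an unadjusted p under 0.05, and their median log2 fold change was -0.02. Gpx3, the secreted plasma peroxidase, was at 2246, 2582 and 3291 CPM in the CAF libraries, against 734, 817 and 6172 CPM in the normal libraries. Normal libraries 1 and 2 lay below every CAF library and normal library 3 above them all. The log2 fold change was 0.07 ± 0.82 (SE; edgeR adjusted p = 0.982) with all libraries. It was 1.74 without normal library 3 (edgeR adjusted p = 0.0232) and -1.13 against normal library 3 alone, so the direction of Gpx3 depended on which normal libraries were used.

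Gpx2, the peroxidase of gastrointestinal epithelium, ran the other way. It was at 299.9, 131 and 149 CPM in CAF against 333, 296 and 26.3 CPM in normal fibroblasts, so normal library 3 was far below all other libraries. Its log2 fold change was -0.19 ± 0.79 (SE; edgeR adjusted p = 0.948) and 2.91 against normal library 3. The epithelial keratin Krt18 was at 1349, 453 and 526 CPM and 1593, 865 and 120.1 CPM in the same libraries, and Epcam, the antigen used to remove epithelial cells, at 233, 127 and 114 CPM and 150.1, 78.5 and 13.8 CPM. Both were lowest in normal library 3, and their part in the values of Gpx2 was not tested. Krt18 and Epcam belong to a list of 14 general epithelial genes. That list summed to 3159, 1459 and 1461 CPM in the CAF libraries, against 5844, 3063 and 1178 CPM in the normal libraries. In the fit with every library 5 of the 14 lay above 0 and 9 below. Of these genes 1 was called by edgeR, higher in CAF, where 0.897% of all tested genes were. Against normal library 3 alone 3 of the 14 were below 0, at a median log2 fold change of 2.58.

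Gpx7, an endoplasmic reticulum peroxidase that aids protein folding, was at 84.9, 174 and 199.9 CPM in CAF against 30.2, 24.1 and 87.5 CPM in normal fibroblasts. Only normal library 3 reached the lowest CAF library. The difference was 3.29-fold higher in CAF (log2 fold change 1.72 ± 0.57, SE; edgeR adjusted p = 0.202), 0.88 on the log2 scale against normal library 3, and it passed without that library (edgeR adjusted p = 0.0247). Its relative Gpx8 was at 26.3, 93.2 and 121 CPM against 26.1, 62.1 and 40.02 CPM, with overlap (edgeR adjusted p = 0.51). Gpx1, the general cytosolic peroxidase, was even across CAF libraries at 745, 799 and 778 CPM and was at 1132, 964 and 804 CPM in the normal libraries. Gpx1 was the only tested glutathione peroxidase whose groups did not overlap, and the difference was 1.25-fold (log2 fold change -0.32 ± 0.31, SE; edgeR adjusted p = 0.707). Gpx4, which protects membranes from lipid peroxides, overlapped at 181, 123 and 114 CPM against 151, 115 and 186 CPM. Of its 50-base stretches near the 3′ end, 98.4% occur in Gpx4-ps2.

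**Figure D3:**
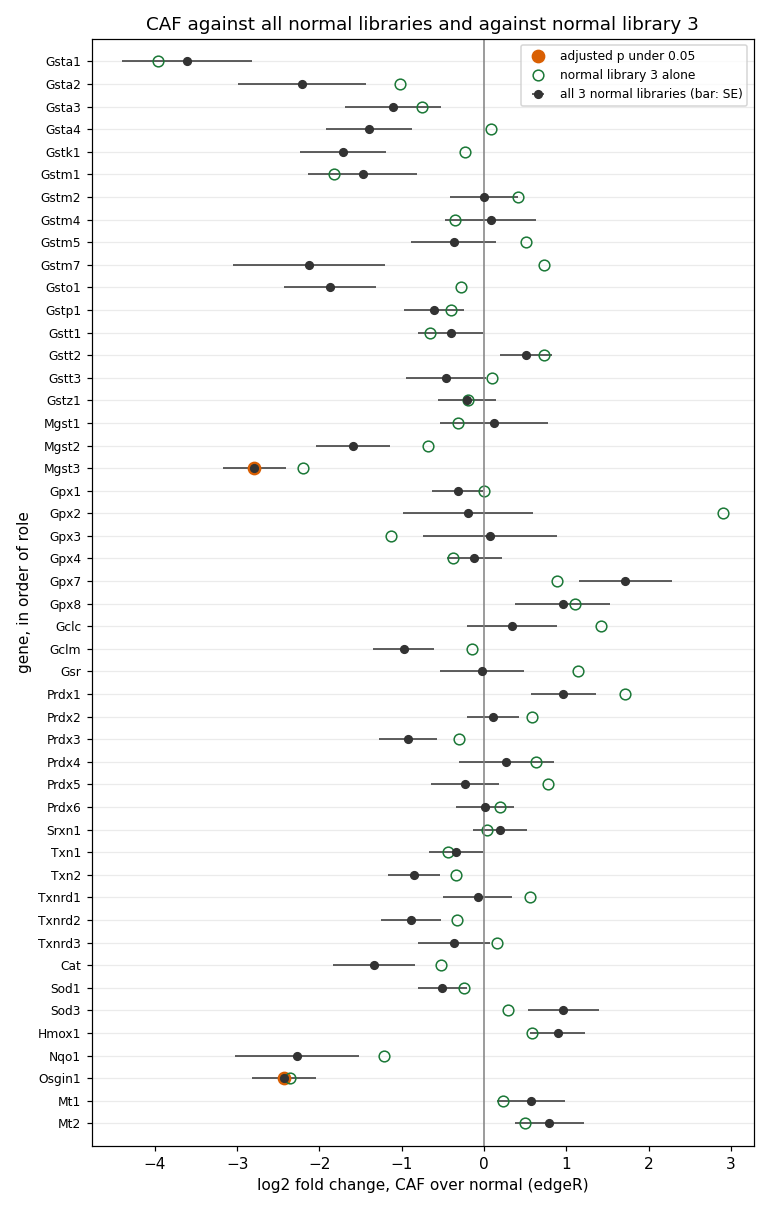
Log2 fold change of the 48 tested genes, CAF over normal, with all normal libraries (filled points with SE bars, orange where the adjusted p was under 0.05) and against normal library 3 alone (open points). Gsta1, Mgst3 and Osgin1 lie below -2 in both, while Gsta4, Gpx2, Gpx3 and Gsr are among the genes on opposite sides of 0.

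Gclc and Gclm form the enzyme that makes the first bond of glutathione, Gclc being the catalytic and Gclm the modifier subunit. Gclm was at 41.0, 46.4 and 39.9 CPM in CAF against 87.7, 114 and 48.8 CPM in normal fibroblasts, without overlap (log2 fold change -0.98 ± 0.37, SE; edgeR adjusted p = 0.26). Normal library 3 lay just above CAF, and without it Gclm passed (log2 fold change -1.30, edgeR adjusted p = 0.0306). Gclc was at 133, 44.2 and 53.6 CPM against 70.6, 78.5 and 28.8 CPM, with CAF library 1 the highest and the groups overlapping (edgeR adjusted p = 0.836). The count ratio of Gclc to Gclm was 3.25, 0.952 and 1.34 in CAF and 0.805, 0.689 and 0.590 in normal fibroblasts. That ratio did not overlap between the groups, although its value in CAF library 1 rests on 28 counts of Gclm. Of other pairs compared, the ratio of Sod3 to Sod1 did not overlap either. The ratios of Txn1 to Txn2, Gpx3 to Gpx1, Gsta1 to Gsta2 and Mt1 to Mt2 did. Gsr, which regenerates reduced glutathione, was at 26.3, 33.0 and 20.2 CPM against 45.3, 20.3 and 12.5 CPM, and its groups overlapped (log2 fold change -0.02 ± 0.51, SE; edgeR adjusted p = 0.993).

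Peroxiredoxins and sulfiredoxin, which remove hydrogen peroxide through a cysteine and repair that cysteine, had a median log2 fold change of 0.11 and no call by edgeR or DESeq2 among 7 tested, with 1 higher and 1 lower at an unadjusted p under 0.05. Prdx1, the NRF2-responsive cytosolic peroxiredoxin, was at 70.2, 95.2 and 128 CPM in CAF against 49.4, 70.9 and 31.3 CPM in normal fibroblasts. The groups overlapped only between CAF library 1 and normal library 2, and normal library 3 was the lowest (log2 fold change 0.96 ± 0.40, SE; edgeR adjusted p = 0.301). Prdx3, the mitochondrial peroxiredoxin, was at 21.9, 22.6 and 19.6 CPM against 49.8, 43.1 and 27.5 CPM, without overlap (log2 fold change -0.92 ± 0.35, SE; edgeR adjusted p = 0.267). Prdx2, a cytosolic peroxiredoxin abundant in red cells, was at 569, 538 and 470.4 CPM against 583, 512 and 364 CPM. Prdx5, found in mitochondria and peroxisomes, was at 790.1, 691 and 596 CPM against 941, 1073 and 419 CPM. Prdx6, which uses glutathione in place of thioredoxin, was at 51.2, 115 and 97.7 CPM against 94.3, 88.7 and 81.3 CPM. Srxn1, the sulfiredoxin that repairs overoxidised peroxiredoxins and a known NRF2 target, was at 48.3, 31.9 and 36.7 CPM against 34.3, 27.9 and 38.8 CPM. In Prdx2, Prdx5, Prdx6 and Srxn1 the groups overlapped, and the edgeR adjusted p lay between 0.847 and 0.994. Prdx4, of the endoplasmic reticulum, had a log2 fold change of 0.27 (edgeR adjusted p = 0.884).

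All 5 thioredoxin system genes had values below 0, with a median log2 fold change of -0.36 and no call by edgeR or DESeq2, 2 having an unadjusted p under 0.05. Against normal library 3 alone 3 of the 5 were below 0. Txn2, the mitochondrial thioredoxin, was at 146.3, 180.1 and 149 CPM in CAF against 341, 309 and 209 CPM in normal fibroblasts. The groups did not overlap (log2 fold change -0.85 ± 0.32, SE; edgeR adjusted p = 0.251), and without normal library 3 Txn2 passed (log2 fold change -1.10, edgeR adjusted p = 0.0414). Txnrd2, the mitochondrial reductase that recharges it, was at 13.2, 17.3 and 17.4 CPM against 33.1, 35.5 and 21.3 CPM, also without overlap (log2 fold change -0.89 ± 0.37, SE; edgeR adjusted p = 0.305). The cytosolic pair overlapped between the groups. Txn1 was at 682, 462 and 406 CPM against 632, 609 and 722 CPM, and Txnrd1 at 146.3, 86.5 and 65.7 CPM against 142, 98.8 and 68.8 CPM, with edgeR adjusted p of 0.709 and 0.962.

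The superoxide dismutases, which turn superoxide into hydrogen peroxide, went in opposite directions without passing the threshold. Sod3, the dismutase secreted into the extracellular matrix, was at 666, 779 and 715 CPM in CAF against 241, 258 and 610.3 CPM in normal fibroblasts. Every CAF library was above every normal library, and normal library 3 lay closest. Sod3 was 1.95-fold higher in CAF (log2 fold change 0.96 ± 0.43, SE; edgeR adjusted p = 0.348), 0.30 on the log2 scale against normal library 3, and it passed without that library (log2 fold change 1.46, edgeR adjusted p = 0.0203). Sod1, the cytosolic dismutase, was at 493, 470.5 and 462 CPM against 798, 642 and 584 CPM, with little spread in CAF and no overlap. Its log2 fold change was -0.51 ± 0.30 (SE; edgeR adjusted p = 0.498). Cat, the catalase of peroxisomes, was at 8.78, 27.6 and 29.8 CPM against 72.2, 67.1 and 35.0 CPM, without overlap (log2 fold change -1.34 ± 0.50, SE; edgeR adjusted p = 0.252).

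Nqo1 and Hmox1, which are often read as reporters of NRF2 activity, differed in direction. Nqo1, a quinone reductase, was at 0, 7.73 and 6.49 CPM in CAF against 42.4, 24.1 and 13.8 CPM in normal fibroblasts. These levels rest on 0, 56 and 48 counts in CAF and 104, 19 and 11 counts in normal fibroblasts, and 3 counts in the shallow CAF library 1 correspond to 4.39 CPM. The groups did not overlap, and Nqo1 was 4.84-fold lower in CAF (log2 fold change -2.27 ± 0.75, SE; edgeR adjusted p = 0.202). Hmox1, the heme-degrading enzyme that heme also induces through release of BACH1, was at 90.7, 115 and 73.8 CPM against 42.0, 44.3 and 65.0 CPM. The groups did not overlap, and Hmox1 was 1.86-fold higher in CAF (log2 fold change 0.89 ± 0.33, SE; edgeR adjusted p = 0.251). The difference was 0.58 on the log2 scale against normal library 3.

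The antioxidant response element core TGACNNNGC, searched on both strands, occurred in the 250 bases before a RefSeq start in 9 of the 46 members that have such a window. Across RefSeq genes 11.5% had a match. Gsta4, Gstt2, Gpx2-ps1, Gclc, Gsr, Prdx6, Sod3 and Hmox1 had no window and were not searched. The matches are shown because the genes that hold these letters did not share a direction. Each line gives 29 bases on the strand of the gene, from GRCm38.p6, with the matched core in capitals. The positions, in the order of the lines, are chr1:21240454-21240482, chr3:107895802-107895830, chr3:107931725-107931753, chr3:122245413-122245441, chr4:116685456-116685484, chr6:138140461-138140489, chr8:94172529-94172557, chr10:82859104-82859132 and chr16:90220696-90220724, where Gstm7 is on the minus strand and the others on the plus strand.
Gsta3: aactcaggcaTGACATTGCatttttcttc
Gstm5: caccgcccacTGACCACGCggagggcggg
Gstm7: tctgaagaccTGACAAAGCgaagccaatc
Gclm: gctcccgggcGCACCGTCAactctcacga
Prdx1: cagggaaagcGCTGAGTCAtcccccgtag
Mgst1: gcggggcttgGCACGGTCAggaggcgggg
Mt2: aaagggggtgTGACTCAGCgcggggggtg
Txnrd1: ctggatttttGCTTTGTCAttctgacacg
Sod1: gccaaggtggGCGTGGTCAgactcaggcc
In Gclm, Prdx1, Mgst1, Txnrd1 and Sod1 the core reads on the opposite strand. Of these genes Gclm and Sod1 had all CAF libraries below all normal libraries, Prdx1, Mgst1 and Mt2 had log2 fold changes above 0, the rest lay below 0, and none passed the threshold. A match is a description of letters and not a measured binding site.

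The metallothioneins Mt1 and Mt2 are small cysteine-rich proteins that bind zinc and copper, are induced by metals through the factor MTF1 and also by glucocorticoids, and scavenge radicals. Mt1 was at 4082, 4326 and 2449 CPM in CAF against 2287, 1811 and 3207 CPM in normal fibroblasts. Mt2 was at 4228, 3815 and 2035 CPM against 1723, 1626 and 2462 CPM. For each gene CAF libraries 1 and 2 were the highest, and CAF library 3 lay below normal library 3. The log2 fold changes were 0.57 ± 0.41 (SE) for Mt1 and 0.79 ± 0.42 (SE) for Mt2, with edgeR adjusted p of 0.594 and 0.442. The count ratio of Mt1 to Mt2 stayed between 0.965 and 1.33 over the 6 libraries while the level of each gene moved widely.

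The window before the start of Mt2 holds 3 matches to the metal response element core, TGCGCNC or TGCACNC on either strand, and that of Mt1 holds 1, beside 23.8% of all genes with at least 1 match and 1.46% with 3 or more. Among the members 15 of 46 had a match. The Mt2 matches lie at chr8:94172385-94172411, chr8:94172480-94172506 and chr8:94172558-94172584 and the Mt1 match at chr8:94179056-94179082 (GRCm38.p6). Each line gives 27 bases on the plus strand, which is the strand of both genes, with the core in capitals. In the Mt2 match nearest to the start the core reads on the opposite strand.
Mt2 match farthest from the start: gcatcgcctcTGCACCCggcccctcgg
Mt2 middle match: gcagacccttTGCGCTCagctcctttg
Mt2 match nearest to the start: gggggagggcGTGTGCAggctctgtcc
Mt1 match: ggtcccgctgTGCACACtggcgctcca

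Normal library 3 was the lowest normal library for 30 of the 48 tested members, where it was so for 41.9% of all tested genes, and the highest for 14. Its value fell within the range of the CAF libraries for 18 members, below all of them for 9 and above all of them for 21. With normal libraries 1 and 2 left out, 3 CAF libraries were set against a single normal library, so the spread came from the CAF libraries alone and the smallest adjusted p of any gene was 0.259. No gene of 12572 could thus be called, and the unadjusted p was under 0.05 for 7 members and for 10.1% of all genes. The members' median log2 fold change was then -0.07, where the median of all genes fitted in both had moved from 0.06 to 0.19. Of the 48 members 24 were below 0 there, beside 4264 of the 10139 genes fitted in both. With normal library 3 left out instead, 13 members passed by edgeR, 10 lower and 3 higher in CAF, beside 10.0% of all genes (6.57% lower and 3.47% higher). Those lower were Gsta4, Gstk1, Gstm3, Gstm6, Gsto1, Mgst2, Mgst3, Gclm, Txn2 and Osgin1, and those higher Gpx3, Gpx7 and Sod3. With any other library left out 0 members passed by edgeR, with 5 to 17 members at an unadjusted p under 0.05, where 0 to 49 genes in all passed and 9.09% to 20.1% of all genes had such a p.

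**Figure D4:**
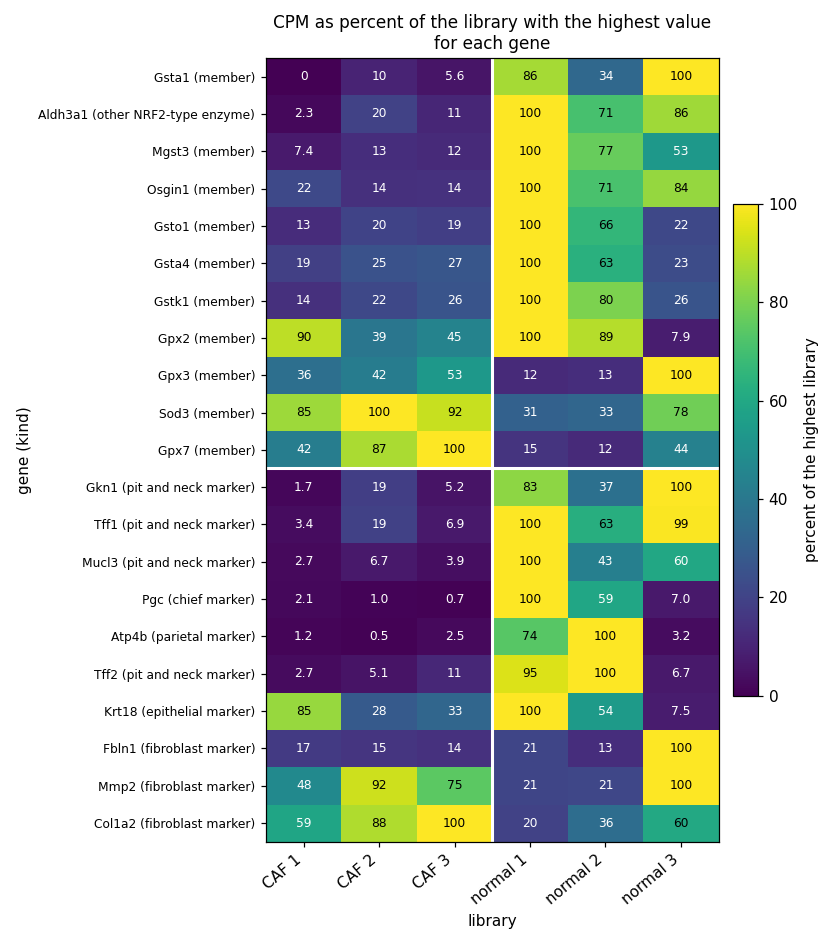
CPM of each gene as percent of the library in which it was highest, for members, the companion Aldh3a1 and markers of gland, epithelial and fibroblast cells, all chosen after their values were seen. Gsta1, Osgin1 and Aldh3a1 stay high in normal library 3, while Gsto1, Gsta4, Gstk1 and the neck cell marker Tff2 are low there.

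The 11 listed pit and neck genes were divided in normal library 3: against that library alone 7 of them had log2 fold changes below 0, where all 11 did in the fit with every library. Gkn1, a secreted pit cell protein, was at 89.2, 997 and 275 CPM in the CAF libraries, against 4416, 1975 and 5331 CPM in the normal libraries, and Tff1 at 506, 2891 and 1032 CPM and 14945, 9393 and 14842 CPM. The neck and gland products Tff2 and Muc6 were instead low in normal library 3, Tff2 at 14399.7, 15195 and 1016 CPM and Muc6 at 3473, 2784 and 68.8 CPM in normal libraries 1 to 3, and Psca was at 10573, 8036 and 1456 CPM there. The chief cell pepsinogen Pgc was at 159236, 94151 and 11196 CPM in the normal libraries and the parietal pump subunit Atp4b at 7321, 9884 and 320.2 CPM, both low in normal library 3. Together the 11 genes summed to 1803, 5990 and 4064 CPM in the CAF libraries, against 56254, 43632 and 27164 CPM in the normal libraries. Of the 16 fibroblast markers, 14 had log2 fold changes above 0 in the fit with every library, at a median of 1.10. Over all tested genes 46.1% lay below 0. Against normal library 3 alone 5 of the 16 were below 0, at a median of 0.60. Single markers differed in their highest library, which was normal library 3 for Fbln1 and Mmp2 and CAF library 3 for Col1a2. The part of pit cell RNA in the values of Mgst3, Osgin1 and Gsta1 was not tested.

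Other genes of these pathways, taken from 7 whole lists, gave 1 call among 70 tested (80 listed of 85), beside the 1.10% of all genes. Their median log2 fold change was -0.004, and 3 were higher and 10 lower at an unadjusted edgeR p under 0.05. Over all tested genes 7.37% were higher and 7.97% lower at that p. DESeq2 called 10 of them: Chac1, Anpep, Msra, Cbr1, Cbr3, Aldh3a1, Cyp2s1 and Mt4 lower, and Nxn and Slc39a14 higher. It called 7.28% of the 12835 genes to which it gave an adjusted p, 3.12% higher and 4.17% lower. The edgeR call was Mt4, a metallothionein of squamous epithelium, at 0, 0.828 and 0.271 CPM in CAF against 133, 346 and 13.8 CPM in normal fibroblasts (edgeR adjusted p = 0.0399). The squamous keratin and cornified-layer list of 10 genes summed to 67.3, 70.2 and 55.6 CPM and 1894, 2803 and 155 CPM in the same libraries, and its part in Mt4 was not tested.

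None of 10 tested regulators of the NRF2 pathway passed by edgeR or DESeq2 or had an unadjusted edgeR p under 0.05, with a median log2 fold change of -0.05. Nfe2l2, which encodes NRF2, was at 49.7, 108 and 141 CPM in CAF against 171, 227 and 47.5 CPM in normal fibroblasts, with normal library 3 lowest of all and the groups overlapping (log2 fold change -0.56 ± 0.60, SE; edgeR adjusted p = 0.736). Keap1, the adaptor that sends NRF2 for degradation, was at 114, 71.1 and 74.8 CPM against 111, 102.6 and 91.3 CPM. Bach1, the heme-sensing repressor of Hmox1, was at 0, 12.3 and 16.6 CPM against 0.408, 16.5 and 0 CPM, so each group held libraries at or near 0. Among the small MAF partners, Mafk had a log2 fold change of -0.66 (edgeR adjusted p = 0.613) and Maff of 0.39 (edgeR adjusted p = 0.729).

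Of 15 other tested enzymes of the NRF2 type none passed by edgeR, with 1 higher and 4 lower at an unadjusted p under 0.05, at a median log2 fold change of -0.29. Aldh3a1, an aldehyde dehydrogenase of stomach and cornea, had the layout of Gsta1 and Osgin1, at 2.93, 25.4 and 13.9 CPM in CAF against 129, 91.2 and 110.1 CPM in normal fibroblasts (log2 fold change -2.84 ± 0.58, SE; edgeR adjusted p = 0.0668). The epithelial cytochrome P450 Cyp2s1 was at 2.93, 6.49 and 13.4 CPM against 117, 122.9 and 27.5 CPM (edgeR adjusted p = 0.0666). Cbr3, a carbonyl reductase, was at 24.9, 41.5 and 48.4 CPM against 196, 168 and 78.8 CPM (edgeR adjusted p = 0.0799). In each of Aldh3a1, Cyp2s1 and Cbr3 all CAF libraries lay below all normal libraries. The ferritin chains, which store iron, had edgeR adjusted p of 0.462 for Ftl1 (log2 fold change -0.65) and 0.969 for Fth1 (0.06).

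In glutathione synthesis, transport and breakdown, 13 tested genes had a median log2 fold change of -0.74 and no edgeR call, 4 being lower at an unadjusted p under 0.05. Gss, which adds the last residue of glutathione, was at 38.0, 26.4 and 28.4 CPM in CAF against 63.7, 77.3 and 35.0 CPM in normal fibroblasts (edgeR adjusted p = 0.295). Chac1, a glutathione-degrading enzyme induced by the unfolded protein response, was at 1.46, 2.35 and 2.71 CPM against 15.5, 13.9 and 6.25 CPM (edgeR adjusted p = 0.093). Anpep, an aminopeptidase, and Oplah, which opens oxoproline, had log2 fold changes of -1.39 and -0.76 with edgeR adjusted p of 0.162 and 0.264. Slc7a11 is not analysed here. Of 7 tested genes that supply NADPH none passed by edgeR or DESeq2 or had an unadjusted edgeR p under 0.05. G6pdx, the entry enzyme of the pentose phosphate path, was at 64.4, 79.9 and 91.2 CPM against 84.1, 100.1 and 52.5 CPM, and Idh2, Taldo1 and Idh1 had log2 fold changes of -0.75, 0.50 and 0.85.

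Among 15 tested glutaredoxins and relatives of thioredoxin, the median log2 fold change was 0.01 with no edgeR call and 1 gene in each direction at an unadjusted p under 0.05. Nxn, a nucleoredoxin that restrains Wnt signalling, was at 116, 97.6 and 74.7 CPM in CAF against 35.5, 41.8 and 41.3 CPM in normal fibroblasts, without overlap (log2 fold change 1.28 ± 0.30, SE; edgeR adjusted p = 0.0901). Txnip, an inhibitor of thioredoxin, was at 293, 312 and 472 CPM against 484, 412 and 1661 CPM, with normal library 3 far above the rest (edgeR adjusted p = 0.371). The methionine sulfoxide reductase Msra had a log2 fold change of -1.56 (edgeR adjusted p = 0.15). Of 7 tested metal-handling genes, the zinc importer Slc39a14 was at 200.4, 248 and 113 CPM in CAF against 57.5, 39.3 and 27.5 CPM in normal fibroblasts, all CAF libraries being higher (log2 fold change 2.16 ± 0.43, SE; edgeR adjusted p = 0.0638). The zinc exporter Slc30a1, a target of MTF1, had a log2 fold change of 1.18 (edgeR adjusted p = 0.455). All 4 tested sources of superoxide and peroxide had values above 0, at a median of 0.78, and none passed by edgeR or DESeq2 or had an unadjusted edgeR p under 0.05. Against normal library 3 alone 3 of the 4 were below 0. Nox4, Cyba and Xdh had log2 fold changes of 1.95, 0.63 and 0.74, with edgeR adjusted p of 0.417, 0.667 and 0.719.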

How the data were processed

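Per the submitters' processing notes, reads were handled with cutadapt, STAR, HTSeq and DESeq2 (versions not given there) on mm10. Not given in the sources used here are annotation, strand use and any collapsing of molecular identifiers. Raw counts per gene symbol were deposited by the authors and were the values tested. The table also holds, per the file headers, a normalized signal (each library's counts over a single size factor), a regularized log2 value that was not used, and the authors' log2 fold change and p-value with its adjusted form. Every listed gene had a count of at least 6 in some library, and 0 per-sample columns lacked a sample.

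Counts were tested here with edgeR 4.0.16 in R 4.3.3 on 3 CAF and 3 normal libraries: filterByExpr, TMM scaling, glmQLFit and glmQLFTest on the group alone, with Benjamini-Hochberg adjustment over 10148 genes and a threshold of 0.05. A standard error is the log2 fold change divided by the root of its F value and is approximate. CPM are on TMM-scaled library sizes, and 3 counts correspond to 0.406 to 4.39 CPM, counting error only. Per the labels, each library was its own mouse or pooled pair of mice. Alternatives were DESeq2 1.42.0, limma 3.58.1 (voom), other size factors, other filters, each library left out, normal libraries 1 and 2 left out together, mouse number as covariate, and gland marker genes taken out. The authors' comparison was read only as their deposited values.

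On simulated counts for this comparison (9398 genes tested), the calls were 0 of 50 genes with a 2-fold change, 17 of 50 with 4-fold, 42 of 50 with 8-fold and 49 of 50 with 32-fold, and 8 of 9948 unchanged genes.

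The members, the 7 companion lists, the marker lists and the rule for naming genes were chosen with earlier results of these data known. Members are named with values if called, if the groups did not overlap at a mean of at least 20 counts, if among the 3 of smallest p or 2 of highest CPM of their role, or if in a fixed set of known enzymes. Companions are named if called, among the 3 of smallest p of their list, or in a fixed set. Sequences are from RefSeq (GRCm38.p6), in which 46 of 54 members had an upstream window. Gene positions and shared 3′ stretches (50 bases in the last 300) are from the GENCODE annotation of GRCm38, in which all 54 were matched.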

Additional observations from a re-analysis of the deposited data

How the results depend on the processing

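Of 570 log2 fold changes of the 38 members named, recomputed under the alternatives, 501 kept their direction and their side of the threshold. The 112 genes called became 935 with DESeq2, 65 with limma-voom, 0 without normal libraries 1 and 2, and 0 to 1193 with each library left out. The 2 members called became 8 with DESeq2, 0 without normal libraries 1 and 2, 0 with mouse number as covariate, and 0 to 13 with each library left out. The 1 companion called became 10, 0, 0 and 0 to 11 in the same fits. The cause was not tested. The members called were Mgst3 and Osgin1 under the other size factors, the other filters, limma-voom and removal of gland markers, and the companion called was Mt4 there, except Aldh3a1 with limma-voom. With mouse number as covariate 81 genes were called, and 9 members and 13.9% of all genes had an unadjusted edgeR p under 0.05. Without normal libraries 1 and 2 a single normal library was left, and no adjusted p was below 0.259. There 7 members and 10.1% of all genes had an unadjusted p under 0.05. Removing gland marker genes changed the scaling and the filter, with 9853 genes fitted and 108 called. It left the read counts of the members as they were.

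Among the 38 members named, the sign of the log2 fold change turned in 41 values of 12 members, none with an adjusted p under 0.05. Without normal libraries 1 and 2 the values were 0.0834 for Gsta4, -0.31 for Mgst1, 0.00040 for Gpx1, 2.91 for Gpx2, -1.13 for Gpx3, 1.14 for Gsr, 0.78 for Prdx5 and 0.56 for Txnrd1. Over all 48 tested members 11 turned from below to above 0 in that fit, among them Gstm7 (-2.13 to 0.73), Gstt3 (-0.47 to 0.09) and Txnrd3 (-0.36 to 0.16), and 3 turned the other way. With mouse number as covariate they were -0.71 for Mgst1, 1.09 for Gpx2, 0.34 for Gsr, 0.13 for Prdx5, -0.21 for Prdx6 and 0.21 for Txnrd1. With limma-voom they were -0.24 for Mgst1, 0.40 for Gpx2 and -0.0369 for Prdx6. Prdx6 was at -0.0016 with DESeq2 and -0.0167 with relative log expression factors, and Gsr at 0.0329 with at least 10 counts in 3 libraries. With each library left out in turn, the value ran from -0.32 to 0.58 for Mgst1, -0.79 to 0.21 for Gpx2, -0.38 to 1.74 for Gpx3, -0.35 to 0.0142 for Gpx4, -0.28 to 0.63 for Gclc, -0.41 to 0.66 for Gsr, -0.13 to 0.23 for Prdx2, -0.61 to 0.0107 for Prdx5, -0.20 to 0.27 for Prdx6 and -0.45 to 0.20 for Txnrd1.

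No paired analysis was possible because the sample numbers in the labels are not shared between the groups. Depth limits low members most: Nqo1 and Gsta1 had 0 counts in CAF library 1, where 3 counts correspond to 4.39 CPM.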
